A study of Drosophila melanogaster with 3 samples.

Results

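The genes described here encode proteins that license DNA for replication, or restrain that licensing. They are the MCM subunits Mcm2, Mcm3, dpa (the fly Mcm4), Mcm5, Mcm6 and Mcm7, the origin recognition complex (ORC) subunits Orc1 and Orc2, the loading factor dup (the fly Cdt1) and its inhibitor geminin. These 10 of 13968 protein-coding genes were taken by their Ensembl symbols. No measured value was part of that rule, but the genes were listed with earlier results of these data known. All peak summits within 500 bp of an annotated transcript start, or in the gene body, were collected for each gene. The data are chromatin immunoprecipitation with sequencing (ChIP-seq) of CG2712, a zinc finger protein, from whole Drosophila melanogaster embryos of 0 to 16 hours. The embryos were of both sexes and came from a transgenic line that stably expresses CG2712 with GFP at its C terminus, and an antibody against GFP pulled the protein down. The 3 biological replicates form a single group with nothing to set it against, so replicates, lists and genes are what can be compared.

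Before S phase, ORC binds origins and, with Cdc6 and Cdt1, places the ring of MCM proteins on DNA, where it later becomes the core of the replicative helicase. Geminin binds Cdt1 and blocks a new round of loading until the cell has divided. In the fly embryo these proteins are first supplied by the mother for the rapid early cycles. In later cycles, transcription of many of these genes is known to depend on E2F. The peaks report where tagged CG2712 was found near these genes and carry no information on the binding of ORC or MCM proteins to origins. They also hold no expression, so cell types could not be checked, and peaks of different tissues and ages are merged in the collection.

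Of the 10 genes, 7 had a promoter peak, meaning a summit within 500 bp of a start, in the IDR list. IDR, the irreproducible discovery rate, weighs how far the ranking of peaks is shared between replicates. Among all protein-coding genes the share was 35.6%. The 7 were Mcm2, Mcm5, Mcm6, Orc1, Orc2, dup and geminin, while Mcm3, dpa and Mcm7 had none. The genes were listed with earlier results of these data known and no test was made over them, so the count is a description. At the level of complexes, 3 of 6 MCM subunit genes and both ORC genes in the set were marked.

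The DNA under the strongest summit is shown for Mcm2, Mcm5, Mcm6 and Orc2, because these are the summits behind the IDR ranks and distances given for these genes. Each sequence is the RefSeq reference (build dm6, plus strand, the strand of all 4 genes) within 50 bases of the summit. Capitals mark TATAAA or the DRE word TATCGATA, on either strand. DREF, the factor named for the DRE, is known for its role at replication genes.
Mcm2, chr3R:8264776-8264876: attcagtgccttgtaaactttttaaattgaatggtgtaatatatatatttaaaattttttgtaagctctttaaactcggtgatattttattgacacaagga
Mcm5, chr3R:10788352-10788452: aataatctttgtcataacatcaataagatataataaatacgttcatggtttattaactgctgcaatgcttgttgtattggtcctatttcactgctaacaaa
Mcm6, chrX:6674237-6674337: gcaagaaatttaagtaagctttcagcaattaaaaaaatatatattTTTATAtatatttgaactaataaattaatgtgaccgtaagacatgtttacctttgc
Orc2, chr3R:13964651-13964751: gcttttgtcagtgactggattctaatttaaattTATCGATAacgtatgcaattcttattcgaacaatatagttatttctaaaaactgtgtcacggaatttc
None of these stretches touches an annotated exon. All are rich in A and T, with a G+C content of 24.8% at Mcm2, 28.7% at Mcm5, 22.8% at Mcm6 and 29.7% at Orc2. Over the 4248 IDR summits within 500 bp of a coding start the median was 33.7%, with quartiles of 26.7% and 42.6%. The other member summits ran from 22.8% at the outer geminin start to 47.5% at its inner start, so low G+C was not shared by all of them.

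Among the MCM genes, Mcm2 had the strongest peak of the whole set. Mcm2 (FBgn0014861; chromosome 3R, 8264970 to 8267924, plus strand) encodes one of the subunits of the ring. Its IDR peak (8264498 to 8265010) had a signal of 961.6, the authors' own enrichment value, and rank 1618 by signal. The rank was 1169 in replicate 1, 1900 in replicate 2 and 2014 in replicate 3 (mean 1694 ± 459, SD, n = 3), so all 3 replicates placed it high. Of the 4973 bound coding genes, 22.7% had a stronger promoter peak. The IDR summit lay 144 bp upstream of the start. The replicates put it 122, 234 and 145 bp upstream. Only replicate 2 listed a second summit, 26 bp upstream of the start, at rank 20286.

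Mcm2 shares this region with RPA1, a gene for replication protein A, the protein that coats single-stranded DNA at forks. Its start lies 519 bp away on the other strand. The Mcm2 summit was nearer to Mcm2 in all 3 replicates.

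Mcm5 and Mcm6 had weaker promoter peaks. Mcm5 (FBgn0017577; 3R, 10788524 to 10791150, plus strand) had an IDR signal of 352.1 and rank 5846, with the summit 122 bp upstream of its start. Its ranks in replicates 1, 2 and 3 were 4001, 7560 and 6031 (mean 5864 ± 1790). The summit lay 160, 55 and 137 bp upstream in the same order, and replicate 2 stood apart from the others. The region is short, since Art1, which encodes an arginine methyltransferase, starts 298 bp away on the other strand. The summit of replicate 1 was nearer to Art1 (138 bp), and those of replicates 2 and 3 were nearer to Mcm5.

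Mcm6 (FBgn0025815; X, 6674387 to 6677176, plus strand) had an IDR signal of 258.0 and rank 8020. Its ranks were 6608, 8711 and 11334 (mean 8884 ± 2370), so replicate 3 placed it below the 9789 strongest peaks, the length of the IDR list. Its summit was 98, 144 and 89 bp upstream in replicates 1, 2 and 3, and 100 bp upstream in the IDR list. Its divergent neighbour CG3198 starts 414 bp away. With only IDR peaks that overlapped the strongest of both remaining replicates, Mcm6 was lost without replicate 1 and without replicate 2. That left 6 of the 10 genes, against 29.6% and 28.8% of coding genes. Both settings keep replicate 3, so the loss follows from the rank of Mcm6 there and is no separate check.

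Mcm3, dpa and Mcm7 had no promoter peak in the IDR list, and the other lists differed between them. Mcm3 (FBgn0284442; X, 5323855 to 5326738, plus strand) had a weak promoter peak in every list of 30000 peaks. Its ranks were 15620, 19745 and 20338 in the replicates and 15528 in the pooled list (signal 111.5, against 206.2 for the weakest IDR peak). The summit lay 139, 133 and 44 bp upstream of the start. A second summit, 843 to 957 bp upstream, was nearer to the start of Rnp4F. It ranked above the promoter summit in all 3 replicates (13359, 15992 and 15644) and in the pooled list (12262, signal 154.0).

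The peak at dpa appeared in 1 replicate and nowhere else. dpa (FBgn0015929; 2R, 7496702 to 7500145, minus strand) has 2 annotated starts, and the outer one lies 2 bp from the start of didum, which encodes a myosin, on the other strand. In replicate 2 a summit at 7499986 in the 5' UTR had rank 2969 and signal 264.8. No summit was listed near either start in replicates 1 and 3 or in the pooled list, although each held 30000 peaks. Of all coding genes, 0.301% had a promoter summit in only 1 replicate list and there within the 3000 strongest. The limit of 3000 lies just above the rank of dpa itself, so this share does not measure how rare such a peak is. Within as many peaks as the IDR list holds, the share was 2.61%, and with no limit on rank it was 11.2%. A repeated peak (IDR rank 2729, signal 652.7) stood 279 bp beyond the 3' end of dpa, with its summit 43 bp from the start of the next gene, CG1620.

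Mcm7 showed the same pattern with another replicate. Mcm7 (FBgn0020633; 3L, 8891596 to 8894310, plus strand) had a summit 184 bp upstream of its start in replicate 1, at rank 6335 and signal 83.99. Replicates 2 and 3 and the pooled list held no summit within 500 bp. A promoter summit in only 1 replicate list, and there among its 9789 strongest, was found at 2.61% of coding genes. Peaks of a replicate could also be missing from the pooled list altogether. Of the 9789 strongest, 716 (7.31%), 234 (2.39%) and 328 (3.35%) in replicates 1, 2 and 3 overlapped no pooled peak. A missing entry for dpa or Mcm7 therefore does not grade occupancy there, and the cause was not tested.

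**Figure D1:**
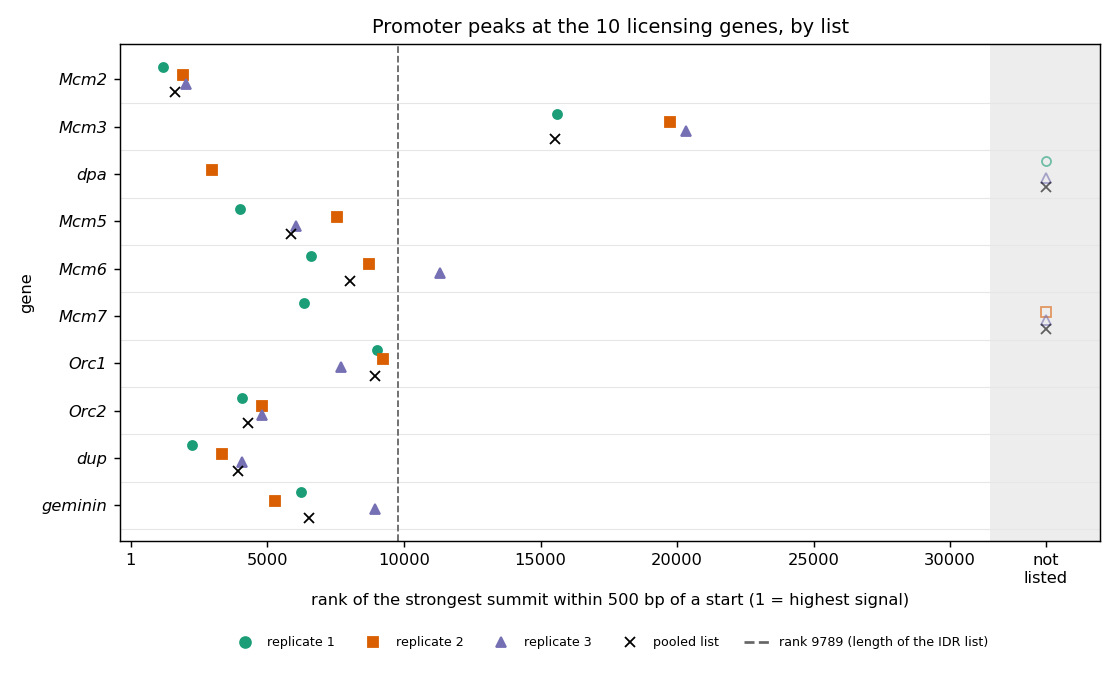
Rank of the strongest promoter summit of each of the 10 genes in each replicate and in the pooled list (x axis, 1 is the highest signal; open symbols and crosses in the grey strip were not listed among 30000 peaks). Mcm2 lies between 1169 and 2014 in the replicates, dpa is listed in replicate 2 alone and Mcm7 in replicate 1 alone.

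The ORC genes Orc1 and Orc2 both had repeated promoter peaks. Orc1 (FBgn0286788; 2R, 7522437 to 7525716, minus strand) encodes the largest ORC subunit. Its IDR signal was 228.0 with rank 8950, in the weakest part of the list, and 94.4% of bound coding genes had a stronger peak. Its ranks of 9006, 9242 and 7687 (mean 8645 ± 838) were close together, and all 3 were within the 9789 strongest. The summit was 70, 113 and 99 bp upstream of the single start. No divergent coding gene starts within 1000 bp, so this peak is the only one of the 7 with no such neighbour.

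Orc2 (FBgn0015270; 3R, 13964885 to 13967075, plus strand) had 2 IDR summits. The stronger (signal 459.0, rank 4301) lay 184 bp upstream of the start and the weaker (210.9, rank 9579) 15 bp inside the 5' UTR. The ranks of its strongest summit were 4086, 4815 and 4813 (mean 4571 ± 420), the narrowest range of the set, since the highest was 1.18 times the lowest. These summits stood 148, 130 and 147 bp upstream, within 18 bp of each other. The second summit was listed again in replicate 3 alone (53 bp downstream, rank 12078). Kots, its divergent neighbour, starts 711 bp away.

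The gap between the Orc2 summits was 199 bp, which is also the smallest gap between any summits in each of the 5 lists. Of the 576 gaps of up to 500 bp in the IDR list, 76.0% were no longer than 210 bp. Most short gaps were thus close to the smallest one, but these 438 gaps are few beside the 9789 IDR peaks. What sets the smallest gap was not tested. Whether the weaker one is a separate place of occupancy was not tested.

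Each IDR summit of Orc2 lay beside a full DRE word. The first base of the word was 17 bases before the upstream summit and 2 bases after the downstream one. The downstream copy is shown with 10 bases on either side and the word in capitals, since its summit lies in the 5' UTR.
Orc2, chr3R:13964892-13964919: atgtcttagtTATCGATAattcccgcca
Within 50 bases of a summit, the word occurred at 5.60% of the IDR summits near coding starts. No other gene of the set had it there. These positions are those of the IDR list. In replicates 1, 2 and 3 the upstream Orc2 summit lay 148, 130 and 147 bp before the start, against 184 bp. The downstream one lay 53 bp after the start in replicate 3, against 15 bp. All were thus farther from the words than the IDR summits.

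The loading factor gene dup had 2 IDR peaks, and both were nearer to another gene. dup (FBgn0000996; 2R, 15376619 to 15380988, minus strand) overlaps SRPK, a kinase gene for splicing factors, which runs the other way from starts at 15380724 and 15381449. The stronger IDR summit (15381310, signal 493.2, rank 3923) lay 322 bp upstream of the outer dup start and 139 bp from an SRPK start. The weaker (15380718, signal 385.8, rank 5291) lay in the dup 5' UTR, 104 bp upstream of the inner dup start and 6 bp from the other SRPK start. When a summit was counted only for the gene with the nearest start, dup was the 1 gene lost. That left 6 of 10, against 27.1% of coding genes.

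The replicates disagreed on which dup summit was the stronger. The upstream one had rank 2232 in replicate 1, 7218 in replicate 2 and 4053 in replicate 3. The inner one had rank 28345, 3347 and 4294. Replicate 1 thus listed the inner summit only near the bottom of its list (−log10 q of 0.109), while replicate 3 had both at nearly the same rank. Replicate 2 alone listed a further summit between the inner and upstream ones. It lay 55 bp downstream of the outer dup start, nearer to dup than to SRPK, at rank 11258. A weak summit in a dup intron, 1855 to 1895 bp downstream of the nearest start, was listed in replicates 2 and 3 (ranks 13987 and 20190) and in the pooled list (rank 16350).

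Geminin, the inhibitor of the dup protein, had a pair of summits at its starts. geminin (FBgn0033081; 2R, 6655463 to 6656594, minus strand) has starts 193 bp apart, and an IDR summit lay 27 bp upstream of the inner start (signal 317.8, rank 6517) and 34 bp upstream of the outer one (217.9, rank 9294). Replicates 1 and 2 listed both, with ranks of 6212 and 8388, and 5289 and 10300. Replicate 3 listed 1 summit between these positions, 10 bp downstream of the outer start, at rank 8954. Over replicates the strongest summit had a mean rank of 6818 ± 1910. The IDR summits were 200 bp apart, close to the smallest gap in the lists, as at Orc2. The divergent gene sced starts 732 bp away, and a weaker summit of replicates 1 and 2 (ranks 10691 and 13795) lay nearer to sced.

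**Figure D2:**
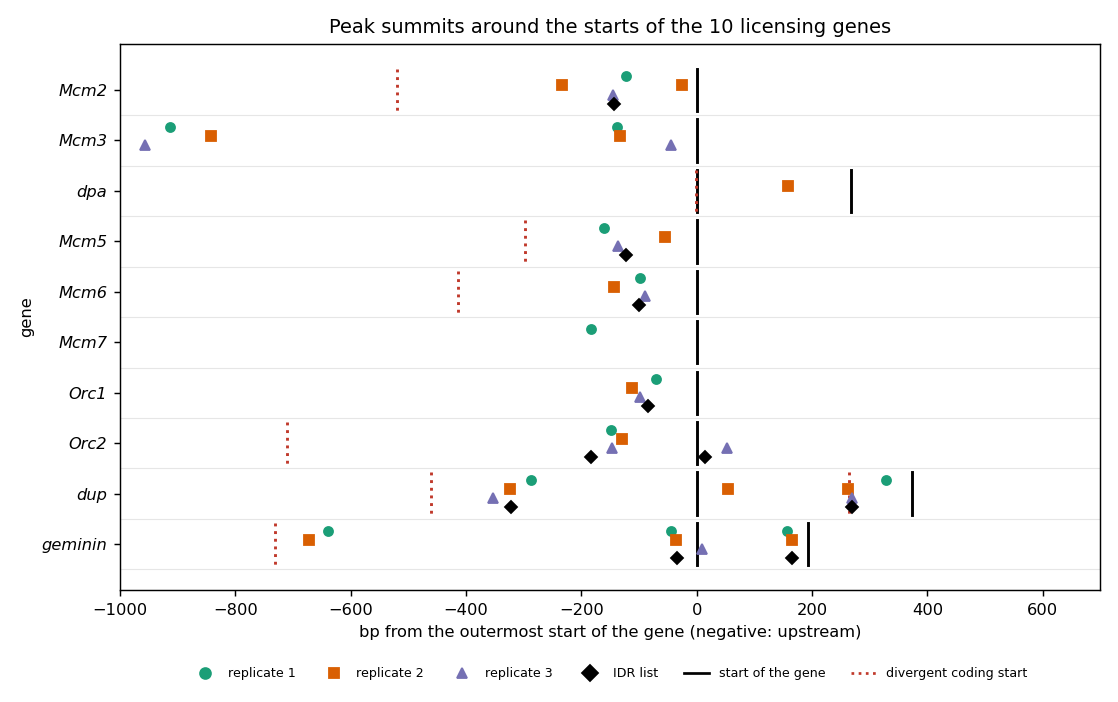
Position of the peak summits around the outermost start of each gene (x axis in bp, negative upstream; black lines are starts of the gene, red dotted lines divergent coding starts, black diamonds the IDR list). The IDR summits of Mcm2, Mcm5, Mcm6 and Orc1 lie 144, 122, 100 and 84 bp upstream of the start, while dup and geminin each have 1 summit upstream of and 1 inside the transcribed region.

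Together the 7 bound genes carried 10 IDR promoter summits. Of these 10, 9 were upstream of the nearest start and 9 within 200 bp of it, with a median of 102 bp upstream. The 4248 IDR summits near coding starts had a median of 96 bp upstream, and 83.0% of them were upstream. At least 2 IDR summits stood at 3 of the 7 bound genes (Orc2, dup and geminin), against 15.3% of all bound coding genes. The gaps at Orc2 and geminin, 199 and 200 bp, were at or near the smallest in the list, and both dup summits were nearer to SRPK. The number of starts per gene, which widens the stretch searched, was not matched. No IDR summit lay in the body of any of the 10 genes over 500 bp from a start, where 11.2% of coding genes had one. Gene length was not matched in that comparison. The replicate lists added a body summit to Orc2 (replicate 1, coding exon, rank 24381) and those in the dup intron.

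Most of the bound licensing genes had weaker promoter peaks than the middle bound gene. The median rank over the 7 bound genes was 5846, and 4137 over the 4973 bound coding genes, taking the strongest promoter peak of each. Mcm2 and dup were above that middle rank and the other 5 below it. Among the 4894 strongest peaks of the IDR list the set had 3 of its 10 genes (Mcm2, Orc2 and dup), against 20.6% of coding genes. Among the 9789 strongest peaks of each replicate, 8, 8 and 6 of the genes had a promoter summit (mean 7.33 ± 1.15, SD, n = 3), against 35.4%, 34.4% and 36.9% of coding genes. In every replicate at that depth there were 6, namely the 7 bound genes without Mcm6, against 26.7%. At least 2 replicates gave the 7 genes of the IDR list, against 35.7%.

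The whole lists of 30000 peaks reach weaker peaks and more genes. There 9, 9 and 8 of the 10 genes had a promoter summit in replicates 1, 2 and 3, against 49.2%, 50.7% and 51.8% of coding genes. All 3 lists held 8 of them, Mcm3 and Mcm6 now included, against 39.7%. The pooled list also held 8, against 49.2%. The 2 genes left, dpa and Mcm7, each had a summit in exactly 1 replicate list, as 11.2% of coding genes did.

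**Figure D3:**
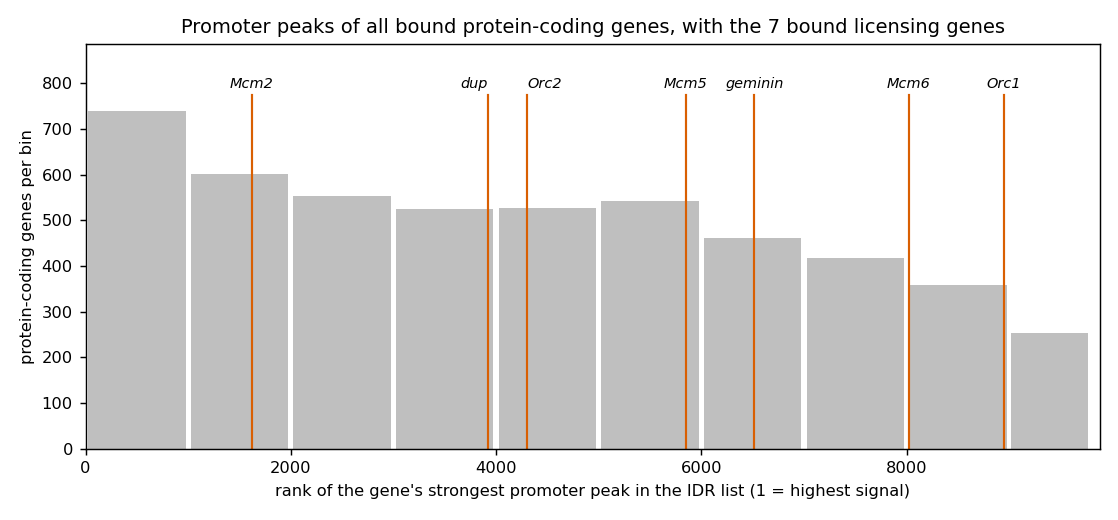
Number of bound protein-coding genes by the rank of their strongest promoter peak in the IDR list (grey bars, 1000 ranks per bin, the last bin shorter), with the 7 bound licensing genes as orange lines. Mcm2 stands at rank 1618 and Orc1 at rank 8950, with the other 5 between.

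Most of these genes start close to a gene on the other strand. A divergent coding start within 1000 bp was present at 7 of the 10 genes, and 6 of these 7 had an IDR promoter peak (all but dpa). Among the 5052 coding genes with such a neighbour 58.5% had one. Of the 3 genes without one, only Orc1 had a peak, against 22.6% of such coding genes. A summit between 2 starts counts for both, so the 7 of 10 is to be read beside 58.5% as much as beside 35.6%. The part that shared starts play in the count was not tested.

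Most of these genes had an E2F word at a start. E2F sites were searched as TTTCGCGC, TTTGGCGC and TTTCCCGC on both strands, from 250 bases before to 50 after each start. At least 1 was present at 6 of the 10 genes, Mcm2, Mcm3, dpa, Mcm6, Orc1 and dup, and at 6.53% of all coding genes. Those on X and 3R are shown with 10 bases on either side and the word in capitals, so that they can be set beside the summit sequences.
Mcm2, chr3R:8264996-8265023: tagcaaacatTTTCCCGCgcattttcgc
Mcm3, chrX:5323839-5323866: acactacgctTTTCCCGCgaaaaaactt
Mcm6, chrX:6674390-6674417: tcagaaaaagGCGCCAAAaccgagcaaa
At Mcm2 the word began 36 bases after the start, and its middle was 184 bp from the IDR summit. At Mcm6, Orc1 and dup the distances from the middle of the word to the nearest IDR summit were 116, 90 and 86 bp. None of the 10 IDR summits of these genes had an E2F word within 50 bases, and 1.15% of all IDR summits near coding starts did. At so low a share 10 summits cannot show a lack, and Mcm3 and dpa have no IDR promoter summit to count. The words were not outside the peaks, however. At Mcm6, Orc1 and dup the whole word lay in the interval of an IDR peak, and at Mcm2 part of it did. Summits of other lists came closer, at 26 bp for dpa in replicate 2 and 28 bp for dup in replicate 1. For Mcm3 the distance was 42 bp in replicate 3 and the pooled list. These summits were weak or not repeated. The dpa summit was in replicate 2 alone, and the dup summit had rank 28345. Mcm3 had rank 20338 in replicate 3 and 15528 in the pooled list. Replicates 1 and 2 placed the Mcm3 summit 136 and 130 bp from the word.

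Promoter peaks were found with and without the E2F word. Of the 6 genes with the word 4 had an IDR promoter peak, and of the 4 without it 3 did. Over all coding genes the shares were 42.7% with the word (389 of 912) and 35.1% without. A match shows letters in the reference and not a site in use.

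Other words separated the members little. CGATA, the core of the BEAF-32 insulator site and contained in the DRE, was in the start windows of 6 genes (53.1% of coding genes). TATAAA was in those of 8 genes (51.3%). The full DRE word was at Orc2 alone (10.2%). The M1BP word GGTCACACT was at Mcm3 alone (6.77%) and GAGAG at Orc2 alone (36.3%). CAGGTAG, the word of the early activator Zelda, was at none (2.30%).

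Other genes of licensing and firing had promoter peaks at about the share of coding genes in general. Of 25 further genes, in 3 lists drawn up from general knowledge of replication, 9 (36.0%) had an IDR promoter peak, beside 35.6% of coding genes. Most of the 25 have a divergent coding start within 1000 bp, a group in which 58.5% of coding genes had such a peak. Of the other licensing genes, Cdc6, the partner of Cdt1 in MCM loading, was the 1 of 5 with a peak (signal 211.9, rank 9533). Its rank was 7344 in replicate 2 and 15173 in replicate 3, and it was not listed in replicate 1. When IDR peaks had to overlap the strongest of both remaining replicates, Cdc6 was lost whichever replicate was left out. Orc3, Orc4, Orc5 and Orc6 had none in the IDR list, so 2 of the 6 ORC genes were marked there.

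Orc4 and Orc5 were nevertheless strong in 2 replicates each. Orc4 had ranks 6496 and 6881 in replicates 1 and 2, and Orc5 had ranks 6062 and 8130 in replicates 1 and 3, with no entry in the remaining replicate or in the pooled list. Psf1, a subunit of GINS, had ranks 4672 and 4296 in replicates 2 and 3, and Mcm10, a factor that helps the helicase start, 6231 and 4594. Both were also without a pooled peak. These 4 of the 35 genes, members included, had a summit among the 9789 strongest of at least 2 replicates and none in the pooled list. That was so at 1.34% of coding genes and at none of the 10 members. The comparison was chosen after the values were seen.

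Genes of helicase activation had a peak in 4 of 13 cases (30.8%), beside 35.6% of all coding genes. Most of the 13, with all 4 bound genes, have a divergent coding start within 1000 bp. Of coding genes with such a start, 58.5% had a peak. Ctf4, which links the helicase to DNA polymerase alpha, led all the genes examined (signal 1445, rank 834, and ranks 1110, 785 and 806 in the replicates). chif, the fly Dbf4, had signal 669.8 and rank 2637. Its partner kinase gene Cdc7 had signal 531.5 and rank 3582. These are the regulatory and catalytic parts of the kinase that fires origins, and each was among the 9789 strongest of all 3 replicates. The fourth was Cdc45, a helicase cofactor (226.5, rank 8997), which was so in replicate 3 alone. The GINS genes Psf1, Psf2, Psf3 and Sld5 had no IDR promoter peak. Psf2, Psf3 and Sld5 were in the pooled list, however, at ranks 12704, 10518 and 9893. The rank of Sld5 was just below the 9789 strongest that form the IDR list.

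Genes that control licensing had a peak in 4 of 7 cases (57.1%), beside 35.6% of all coding genes. Rif1, which counters firing of late origins, had signal 601.6 and rank 3020, and CycA, a mitotic cyclin, 357.2 and rank 5742. The ubiquitin ligase genes pic (the fly DDB1; 294.7, rank 7040) and l(2)dtl (the fly Cdt2; 308.1, rank 6734) serve the breakdown of Cdt1. pic was among the 9789 strongest of all 3 replicates, but l(2)dtl was so in replicate 3 alone (rank 5913), with rank 10010 in replicate 2 and no entry in replicate 1. Cul4, the scaffold of the same ligase, had no IDR peak. It was listed in replicates 2 and 3, at ranks 12779 and 6490. CycE and Cdk2, the kinase pair of S phase entry, had none either.

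**Figure D4:**
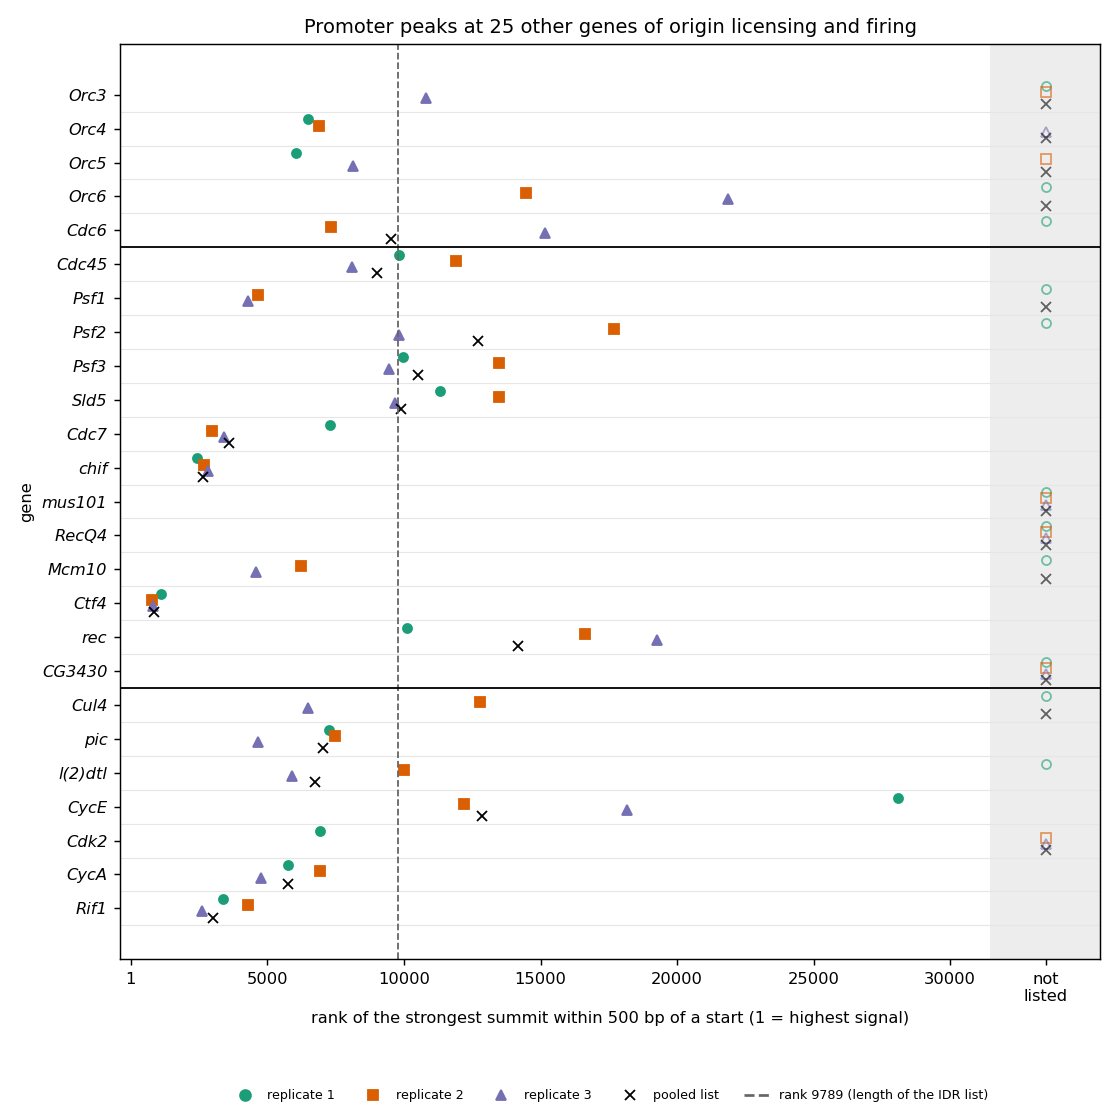
Rank of the strongest promoter summit of 25 other genes of origin licensing (top block), helicase activation (middle) and control of licensing (bottom) in each replicate and the pooled list (x axis, 1 is the highest signal; grey strip, not listed). Ctf4 and chif are high in all 3 replicates, while Orc4, Orc5, Psf1 and Mcm10 are each listed in 2 replicates and not in the pooled list.

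**Figure D5:**
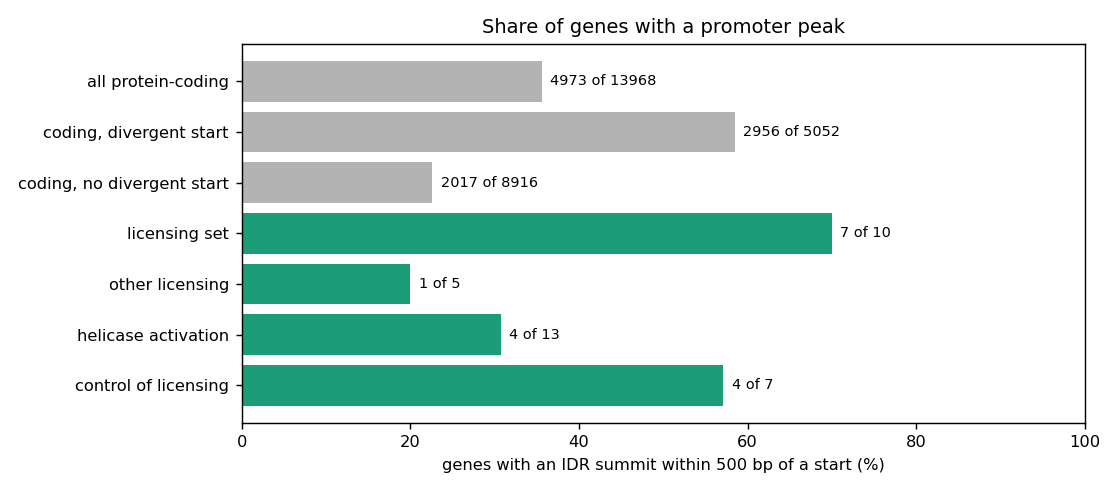
Share of genes with an IDR summit within 500 bp of a start (x axis in %) for all protein-coding genes, those with and without a divergent coding start within 1000 bp, the 10 licensing genes and the 3 further lists, with counts beside the bars. The licensing set (7 of 10) lies above all protein-coding genes (35.6%), and coding genes with a divergent start reach 58.5%.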

How the data were processed

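Per the labels, reads of the 3 biological replicates were placed on build dm6. Per the text deposited with the files, peaks were called for each replicate alone and for all 3 together, with 1 control file, and the IDR list was derived from these 4 lists. For the peak caller, aligner, settings and IDR threshold the sources used here give nothing. The deposited signal value of each peak is the authors' own, and whether it is scaled by depth is not stated, so replicates were compared by rank. The authors' −log10 q is capped and was used only where printed. The replicate and pooled lists hold 30000 peaks each, and the IDR list equals the 9789 strongest pooled peaks. Depth per replicate is unknown.

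A summit was the peak start plus the deposited offset. It was assigned to every transcript start within 500 bp (Ensembl release 115), and sequence was RefSeq's of the same assembly. CDC45L was found by synonym as Cdc45. The members and lists were chosen with earlier results of these data known, and no test was made over them. All members were named. Of the other genes, those with IDR promoter peaks were named, up to 4 per list, and all without one where these were 5 or fewer. Psf1, Psf2, Psf3, Sld5 and Mcm10 were chosen after their values were seen. Spread is the SD over 3 replicates. Assignment was tested on simulated summits. Alternatives were other windows, starts, stricter lists and leaving out replicates. Python 3.11.15, NumPy 2.4.6, pandas 2.3.3 and matplotlib 3.10.9 were used.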

Additional observations from a re-analysis of the deposited data

How the results depend on the processing

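The count of 7 of 10 genes stayed between 6 and 8 with windows of 250 and 1000 bp, the outermost or nearest start only, overlap of the interval, the whole pooled list and the strongest peaks of at least 2 replicates, the last chosen after seeing the data. Over these settings the share of coding genes ran from 27.1% (nearest start) to 49.2% (whole pooled list). The count was 3 among the 4894 strongest IDR peaks (20.6% of coding genes). In every replicate it was 3 with 4894 peaks of each (15.4%). Leaving out each replicate gave 6 to 7 for both counts, against 27.9% to 30.8% of coding genes. The IDR list itself was still derived from all 3 replicates. For the other licensing genes the count of 1 was 0 among the 4894 strongest IDR peaks, 0 without each replicate in turn and 2 among the strongest peaks of at least 2 replicates. The control list gave 1 among the 4894 strongest and 3 without each replicate in turn, and helicase activation 3 without each. In the remaining comparisons counts stayed within 1.5 times. No paired analysis was possible because there is 1 group. Depth is unknown, so absence from a list does not show absence of the protein.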
